A study of Mus musculus with 6 samples.

Results

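Integrins, laminins, nidogens and Tspan tetraspanins were examined in mouse tumours sorted on CD133. The genes were those whose symbol on the array platform named an integrin alpha or beta chain, a laminin chain, Nid1, Nid2 or a numbered Tspan, and each was read at its brightest probe set. They came to 55 of 18193 genes, with 119 of 45037 probe sets between them, and comprised 24 integrin chains, 10 laminin chains, 2 nidogens and 19 tetraspanins. The CD133 high fraction and the CD133 low fraction were measured on 3 arrays each. Both fractions came from subcutaneous tumours of 344SQ, a lung adenocarcinoma line of a single mouse of genotype KrasLA1/+; p53R172HdelG/+, injected into syngeneic mice. The labels give no age, no number of mice and no gate other than CD133, the surface glycoprotein that Prom1 encodes, and they name no drug. Because the hosts were syngeneic, host leukocytes and stroma could be present in either fraction.

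Integrins are cell-surface receptors made of an alpha and a beta chain, and they tie the matrix outside the cell to the actin or keratin skeleton within it. Laminins are trimers of an alpha, a beta and a gamma chain that form the sheet of the basement membrane, nidogens join that sheet to collagen IV, and tetraspanins gather integrins and proteases into patches of the cell membrane. In lung epithelium the laminin-binding integrins hold cells to the basement membrane, whereas leukocytes carry a set of their own for adhesion to vessel walls and to other cells.

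Both fractions held RNA of tumour and host cells. Of 10 epithelial markers 5 were higher and 5 lower in the CD133 high fraction. Among them the keratin gene Krt8 averaged 12.79 ± 0.17 (CD133 high) and 12.39 ± 0.18 (CD133 low), and its keratin partner Krt18 averaged 12.48 ± 0.65 (CD133 high) and 12.89 ± 0.093 (CD133 low) (log2 values, SD, n = 3 each). Of 10 pan-leukocyte markers 7 were lower in the CD133 high fraction. Ptprc averaged 12.99 ± 0.23 (CD133 high) and 12.96 ± 0.22 (CD133 low), and Cd52 averaged 11.82 ± 0.96 (CD133 high) and 13.02 ± 0.10 (CD133 low). Prom1, the gene of the sorted antigen, read 6.80, 6.63 and 6.40 on the CD133 high arrays, against 5.49, 5.92 and 6.06 on the CD133 low arrays. CD133 high replicates 2 and 3 stood apart from CD133 high replicate 1 and from the CD133 low arrays. Across probe sets the mean Spearman rho of CD133 high replicate 1 was 0.931 with CD133 high replicates 2 and 3 and 0.973 with the CD133 low arrays. The mean rho of CD133 high replicates 2 and 3 with the CD133 low arrays was 0.929 and 0.927. For Gapdh, the 3' probe set minus the middle probe set was −0.13, 0.44 and 0.46 on CD133 high replicates 1, 2 and 3, against −0.09, −0.09 and −0.07 on the CD133 low arrays. The hybridisation controls averaged 10.38, 11.29 and 11.04 on the CD133 high arrays in that order and 10.19 to 10.51 on the CD133 low arrays. Among the 55 genes, 44 had a value on CD133 high replicate 1 nearer to the CD133 low mean than to the mean of the other CD133 high arrays. That count was not made over all genes, so it describes these 55 only. Because CD133 high replicate 1 resembled the CD133 low arrays across probe sets, results are given with and without it. Leaving out an array for its likeness to the CD133 low arrays tends to enlarge differences and lower p-values, so those results are descriptive. In them the fractions also differ in the Gapdh and hybridisation values above, which cannot be told apart from CD133 status. The part of RNA quality and hybridisation was not tested.

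No member passed the test. With limma and Benjamini-Hochberg adjustment over all probe sets, 0 of 55 genes had an adjusted p under 0.05, against 0.253% of all genes and 0.182% of all probe sets. At an unadjusted p under 0.05 there were 10 genes, 18.2% of the 55, which equals the 18.2% of all genes. Of these 6 were higher in the CD133 high fraction, where 8.3% of all genes were, and 4 were lower, against 9.94%. The arrays of the fractions did not overlap for 10 genes, again 18.2%, against 23.6% of all genes. They lay above in 7 genes (10.8% of all genes) and below in 3 (12.8% of all genes). The median log2 difference, CD133 high minus CD133 low, was 0.019 over the 55 genes and 0.0013 over all genes. Without CD133 high replicate 1, 17 of the 55 passed the test, which is 30.9%, against 26.3% of all genes. Of these 9 rose and 8 fell, where 11.7% of all genes rose and 14.6% fell. That comparison set 2 CD133 high arrays against 3 CD133 low arrays, and the array left out was the CD133 high array most like the CD133 low arrays.

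**Figure D1:**
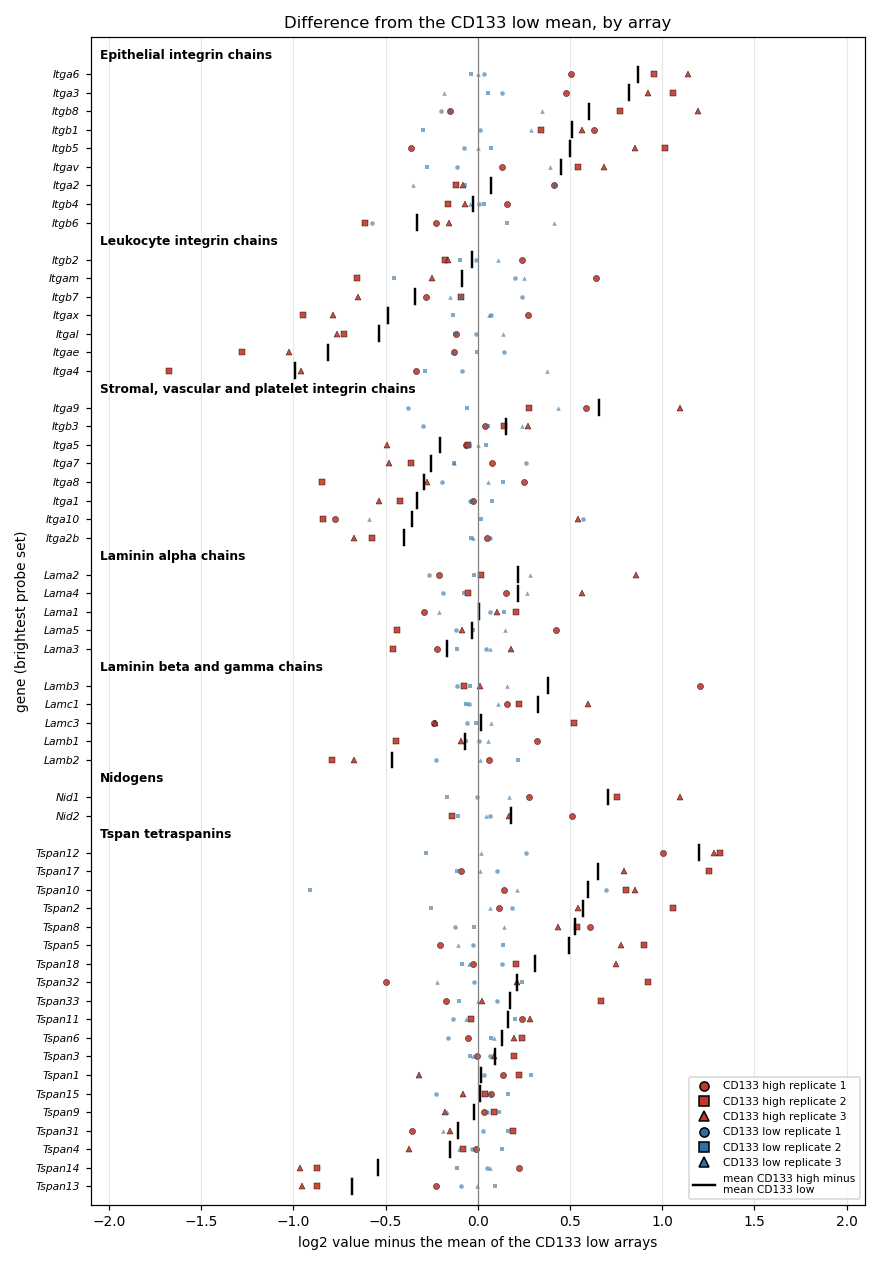
Each row is a gene at its brightest probe set, and the x axis is the log2 value minus the mean of the CD133 low arrays; large red marks are CD133 high arrays, small blue marks CD133 low arrays and black bars the difference between fraction means. Epithelial integrin chains lie mostly to the right and leukocyte chains to the left, with CD133 high replicate 1 (circles) often close to 0.

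Promoter sequence is shown for the 2 genes with the most positive and the 2 with the most negative difference among those whose fractions did not overlap and that had a single entry in the RefSeq promoter table (GRCm38.p6), in which 41 of the 55 genes were found. Each line gives the 250 bases before the annotated start, 5' to 3' on the gene's strand, with capitals marking matches to any of 3 motifs on either strand. The motifs searched were the letters GGGCGG of the GC box, to which Sp1 is known to bind. Also searched were the letters TATAAA of the core promoter element named for them. The AP-1 motif was spelled TGANTCA, and no match overlapped another. Tspan12 lies at chr6:21852534-21852783 on the minus strand, Nid1 at chr13:13437352-13437601 and Itga4 at chr2:79255176-79255425 on the plus strand, and Tspan13 at chr12:36042479-36042728 on the minus strand.
Tspan12: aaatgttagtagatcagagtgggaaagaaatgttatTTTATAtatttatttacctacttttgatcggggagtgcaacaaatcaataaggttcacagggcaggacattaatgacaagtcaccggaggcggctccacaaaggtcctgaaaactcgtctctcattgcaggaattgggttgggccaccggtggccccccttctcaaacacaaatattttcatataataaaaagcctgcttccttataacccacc
Nid1: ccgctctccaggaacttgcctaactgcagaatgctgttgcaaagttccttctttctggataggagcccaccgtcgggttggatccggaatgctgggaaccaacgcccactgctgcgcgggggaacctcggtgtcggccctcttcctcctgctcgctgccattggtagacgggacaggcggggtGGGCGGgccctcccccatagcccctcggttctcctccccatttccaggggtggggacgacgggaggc
Itga4: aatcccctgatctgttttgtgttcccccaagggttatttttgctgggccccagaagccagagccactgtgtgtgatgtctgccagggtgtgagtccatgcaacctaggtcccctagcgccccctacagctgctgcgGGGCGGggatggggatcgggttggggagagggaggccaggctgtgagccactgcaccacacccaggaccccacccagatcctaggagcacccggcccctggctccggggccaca
Tspan13: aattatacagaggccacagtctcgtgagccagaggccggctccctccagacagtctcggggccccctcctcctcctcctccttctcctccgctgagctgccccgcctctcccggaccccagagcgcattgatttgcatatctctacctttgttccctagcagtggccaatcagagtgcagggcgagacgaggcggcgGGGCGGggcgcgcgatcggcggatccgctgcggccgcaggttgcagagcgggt

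The Tspan12 window held 1 TATA box match, on the opposite strand, and no GC box, with a GC content of 42.0%. The Nid1, Itga4 and Tspan13 windows held 1 GC box each, with GC contents of 64.4%, 64.0% and 66.0%, against a median of 52.4% over all promoters in the table. A GC box was found in 41.5% of the 41 genes and in 32.7% of all 32851 promoters of this length. The TATA box was found in 2.44% of the genes against 12.4% of all promoters, and the AP-1 motif in 4.88% against 6.75%. Genes with several entries count once here if any entry held the motif, whereas each entry counts singly among all promoters. This can raise the share of the genes, so the shares are not strictly alike. These matches describe the letters of the window only.

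The 9 integrin chains listed as epithelial leaned toward the CD133 high fraction, and which cells carried them was not tested. At their brightest probe sets 7 had a positive difference and 2 a negative one, with a median of 0.50, whereas 50.1% of all genes had a positive difference. The positive count was 6 of 9 with quantile normalization and 7 of 9 with equal 75th percentiles or with the hybridisation controls as a covariate, where the median was 0.26. The median was 0.33 without CD133 high replicate 3. None of the 9 passed the test, and 3 had an unadjusted p under 0.05, all higher, where 8.3% of all genes were. Relative to the CD133 low mean, the group median was 0.16 on CD133 high replicate 1, 0.54 on replicate 2 and 0.69 on replicate 3.

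Itga6 encodes the alpha chain that binds laminin together with the chain of Itgb1 or Itgb4. Its log2 values were 11.49, 11.94 and 12.12 on CD133 high replicates 1, 2 and 3, against 11.02, 10.94 and 10.99 on the CD133 low arrays (probe set 1422445_at). Every CD133 high array lay above every CD133 low array, and the CD133 low arrays were within 0.1 of each other. The difference was 0.87 (SE 0.19, adjusted p = 0.222), and the other probe set of Itga6 differed by 0.62.

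Itga3, the alpha chain of a second laminin receptor of epithelia, had 10.37, 10.95 and 10.81 on the CD133 high arrays and 10.02, 9.94 and 9.70 on the CD133 low arrays. The fractions did not overlap, and the difference was 0.82 (SE 0.20, adjusted p = 0.253). Its dimmer probe sets differed by 0.094 and 0.57. Itgb1, the beta chain shared by many alpha chains, had 11.42, 11.13 and 11.36 (CD133 high) against 10.80, 10.49 and 11.08 (CD133 low), a difference of 0.51 (SE 0.19, adjusted p = 0.303). Here too the fractions were apart, and replicate 1 was the highest of the CD133 high arrays. Of the 6 probe sets of Itgb1, 5 had a positive difference. Among these, 1426919_at, 1426920_x_at and 1438119_at were dim, with mean log2 values of 4.40, 3.99 and 1.62. The _x_at probe set 1427771_x_at, with a mean of 9.02, differed by −0.29.

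The alpha chain of Itgav and its beta partners Itgb5 and Itgb8 bind vitronectin or latent TGF-beta. Itgav had log2 values of 11.74, 12.15 and 12.29 on the CD133 high arrays, against 11.49, 11.33 and 12.001 on the CD133 low arrays, and the fractions overlapped. Itgb5 stood at 10.19, 11.57 and 11.40 (CD133 high) against 10.48, 10.63 and 10.55 (CD133 low), and Itgb8 at 6.84, 7.77 and 8.19 (CD133 high) against 6.80, 6.84 and 7.34 (CD133 low). In both genes CD133 high replicates 2 and 3 lay above all CD133 low arrays, whereas replicate 1 lay within their range for Itgb8 and below it for Itgb5. The differences were 0.45, 0.50 and 0.61 for Itgav, Itgb5 and Itgb8 (adjusted p = 0.375, 0.486 and 0.425). The 4 dimmer probe sets of Itgav had negative differences, between −0.47 and −0.10, so its direction rested on the brightest one.

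The other epithelial chains had differences no larger than their standard errors. Itga2, a collagen receptor chain, averaged 6.53 ± 0.30 (CD133 high) and 6.46 ± 0.39 (CD133 low). Itgb4, the hemidesmosome partner of Itga6, averaged 7.02 ± 0.16 (CD133 high) and 7.04 ± 0.040 (CD133 low), a difference of −0.025 (SE 0.18, adjusted p = 0.954). Itgb6, whose product activates latent TGF-beta with Itgav, differed by −0.33 (SE 0.35, adjusted p = 0.640). A dimmer probe set of Itgb6, 1422983_at, read 3.72, 5.57 and 5.80 on the CD133 high arrays and was listed at 0 on CD133 low replicates 1 and 2 and at 3.59 on replicate 3 (adjusted p = 0.297). It thus went against the brightest probe set of the gene, and no fold is given for it.

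Where 11.7% of all genes rose without CD133 high replicate 1, 4 of the 9 epithelial chains rose. They were Itga6 by 1.05 (adjusted p = 0.00429), Itga3 by 0.99 (adjusted p = 0.00809), Itgb8 by 0.98 (adjusted p = 0.0413) and Itgb5 by 0.93 (adjusted p = 0.00574). The Itgb5 difference over all arrays was −0.36 once the hybridisation controls entered the model. Beside them, 5 of 10 epithelial markers had a positive difference over all arrays and the list median was −0.03. The mean level of the list was 8.80 to 8.98 on the CD133 high arrays. It was 8.89, 9.32 and 8.82 on CD133 low replicates 1, 2 and 3. Of those markers Esrp1 was listed at 0 on every CD133 high array and on CD133 low replicates 1 and 3. The level of 9.32 thus belongs to the only array where Esrp1 was not listed at 0. The part of epithelial cell number was not tested.

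**Figure D2:**
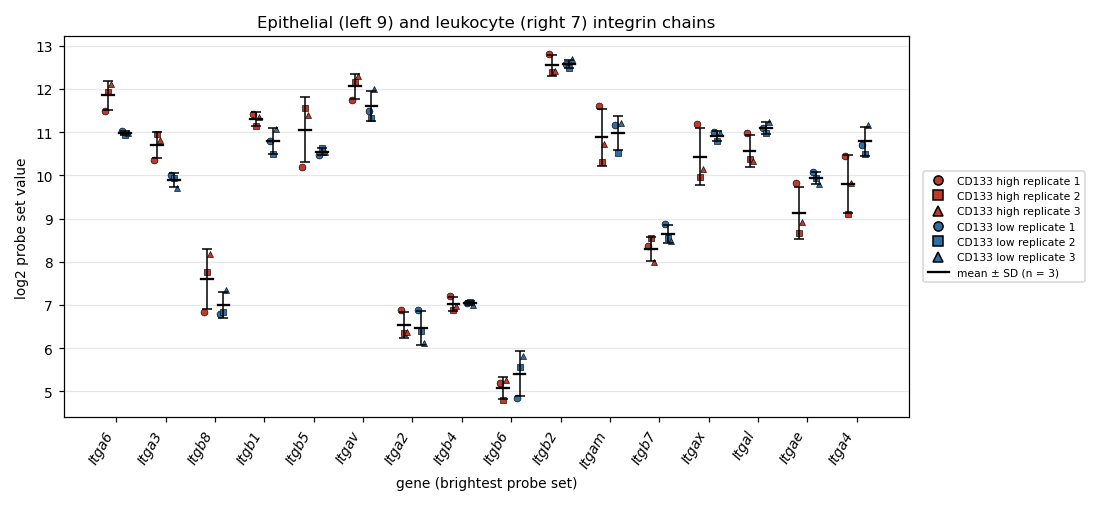
Log2 probe set values of the epithelial and leukocyte integrin chains, with CD133 high arrays left of CD133 low arrays for each gene and the mean ± SD over 3 arrays in black. Itga6, Itga3 and Itgb1 show fractions that do not overlap, with the CD133 high arrays higher, and Itga4 shows the opposite.

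All 7 leukocyte integrin chains had a lower mean in the CD133 high fraction, with differences between −0.99 and −0.03 and a median of −0.49. None of them passed the test, and 3 had an unadjusted p under 0.05, all lower, where 9.94% of all genes were. The negative count was 6 of 7 with quantile normalization and 7 of 7 with equal 75th percentiles, and it was 4 of 7, with a median of −0.10, when the hybridisation controls were a covariate. In that comparison Itgb2 turned to 0.26, Itgam to 0.82 and Itgax to 0.30. The median was −0.74 without CD133 high replicate 1, and 5 of 7 differences were negative without CD133 high replicate 2 or CD133 low replicate 3. The group median was −0.12, −0.73 and −0.76 on CD133 high replicates 1, 2 and 3 relative to the CD133 low mean. In these bulk samples, fewer cells of a type and less RNA per cell cannot be told apart.

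Itga4, the alpha chain by which lymphocytes and monocytes bind VCAM-1 and fibronectin, had log2 values of 10.45, 9.11 and 9.83 on the CD133 high arrays, against 10.70, 10.50 and 11.16 on the CD133 low arrays (probe set 1436037_at). Every CD133 high array lay below every CD133 low array. The difference was −0.99 (SE 0.35, adjusted p = 0.299), and each of the 5 probe sets of Itga4 was lower in the CD133 high fraction, with differences of −0.99 to −0.46. Itgae, or CD103, the chain by which mucosal T cells and some dendritic cells bind E-cadherin, stood at 9.81, 8.67 and 8.92 (CD133 high) against 10.09, 9.94 and 9.81 (CD133 low), a difference of −0.81 (SE 0.30, adjusted p = 0.301). Its second probe set differed by −1.30, and there the fractions did not overlap. Itgb7, the beta partner of both chains, differed by −0.34 (SE 0.21, adjusted p = 0.422).

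Itgal, Itgam and Itgax, which are all on chromosome 7, encode alpha chains that share the beta chain of Itgb2. Itgal, the LFA-1 chain found on most leukocytes, had 10.98, 10.37 and 10.34 on the CD133 high arrays and 11.09, 10.97 and 11.23 on the CD133 low arrays, a difference of −0.54 (SE 0.21, adjusted p = 0.308). Itgax, or CD11c, a chain of dendritic cells and macrophages, had 11.20, 9.97 and 10.14 (CD133 high) against 10.99, 10.79 and 10.99 (CD133 low). In both genes CD133 high replicates 2 and 3 lay below all CD133 low arrays, and replicate 1 lay within their range or above it. Itgam, or CD11b, a chain of neutrophils and macrophages, had 11.61, 10.32 and 10.73 (CD133 high) against 11.18, 10.52 and 11.22 (CD133 low), with overlapping fractions and the highest value on CD133 high replicate 1. The shared Itgb2 averaged 12.55 ± 0.24 (CD133 high) and 12.58 ± 0.10 (CD133 low), a difference of −0.033 (SE 0.18, adjusted p = 0.937).

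Where 14.6% of all genes fell without CD133 high replicate 1, 4 of the 7 leukocyte chains fell. The log2 changes were −1.32 for Itga4 (adjusted p = 0.0277), −1.15 for Itgae (adjusted p = 0.00647), −0.87 for Itgax (adjusted p = 0.00853) and −0.74 for Itgal (adjusted p = 0.0113). Of 10 pan-leukocyte markers 7 were lower, and their list median was −0.08, −0.92 and −1.12 on CD133 high replicates 1, 2 and 3. The mean level of that list was 11.02 to 11.81 on the CD133 high arrays and 11.85 to 11.90 on the CD133 low arrays. T and natural killer cell markers were lower in 8 of 9 genes, of which 5 fell with all arrays in the test, with list medians of −1.99, −2.20 and −2.42. B-cell markers were lower in 4 of 6 genes, of which 3 fell, with list medians of −2.14, −1.18 and −1.39. With all arrays in the test 0.231% of all genes fell. The mean level of the T and natural killer cell list was 7.19 to 7.51 on the CD133 high arrays, against 8.80 to 9.06 on the CD133 low arrays. That of the B-cell list was 7.24 to 7.97 on the CD133 high arrays and 9.23 to 9.496 on the CD133 low arrays. Neutrophil markers had list medians of 0.46, −0.40 and −0.70 with 4 of 6 lower, and a mean level of 11.33 to 12.87 (CD133 high) against 12.04 to 12.30 (CD133 low). Macrophage markers had list medians of 0.07, −0.08 and −0.05 with 5 of 10 lower, and a mean level of 12.29 to 12.51 (CD133 high) against 12.42 to 12.48 (CD133 low). No marker of these 5 lists was listed at 0, and the part of these cells in the integrin differences was not tested.

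Stromal, vascular and platelet integrin chains were mostly lower, 6 of 8, with a median of −0.27, which was 0.03 with 3 of 8 lower when the hybridisation controls were a covariate. The median was −0.16 without CD133 high replicate 2 and −0.18 without CD133 low replicate 1. Itga9, a receptor chain for tenascin C, was one of the 2 exceptions. It had 8.28, 7.97 and 8.79 on the CD133 high arrays, against 7.31, 7.63 and 8.13 on the CD133 low arrays, a difference of 0.65 (SE 0.29, adjusted p = 0.331). The fractions overlapped because CD133 low replicate 3 lay above CD133 high replicate 2. Itga5, the fibronectin receptor chain, stood at 10.32, 10.33 and 9.89 (CD133 high) against 10.34, 10.43 and 10.39 (CD133 low). No array of one fraction lay within the range of the other, and the difference of −0.20 was small (SE 0.17, adjusted p = 0.542).

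Itga2b and Itgb3 form the fibrinogen receptor of platelets. Itga2b had 8.07, 7.44 and 7.35 on the CD133 high arrays and 8.08, 7.98 and 7.99 on the CD133 low arrays, and it fell by 0.62 without CD133 high replicate 1 (adjusted p = 0.0266). Its difference over all arrays was −0.40, and 0.024 once the hybridisation controls entered the model. Itgb3 differed by 0.15, and 5 of 6 platelet markers were higher in the CD133 high fraction, with a list median of 0.26 and a mean level of 7.86 to 7.90 (CD133 high) against 7.65 to 7.84 (CD133 low). Endothelial, fibroblast and smooth muscle marker lists had medians of 0.048, 0.11 and −0.0070 and mean levels of 7.89 to 8.25, 12.14 to 12.46 and 8.84 to 8.90 on the CD133 high arrays. On the CD133 low arrays these levels were 7.87 to 8.01, 12.15 to 12.26 and 8.73 to 8.89, no marker was listed at 0, and the part of these cells was not tested. The collagen receptor chains Itga1 and Itga10 differed by −0.33 and −0.36, the muscle laminin receptor chain Itga7 by −0.26 and the mesenchymal chain Itga8 by −0.29. Adjusted p-values of these 4 chains and Itgb3 were between 0.422 and 0.729, and Itga10 had a mean log2 value below 5 over the 6 arrays, where values are dim.

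Laminin chains showed no shared direction. Of 10 chains 6 had a positive difference, the median was 0.01, and none passed the test or had an unadjusted p under 0.05. Lamc1, the gamma chain of most laminins, had 10.70, 10.77 and 11.14 on the CD133 high arrays, against 10.50, 10.48 and 10.66 on the CD133 low arrays. The fractions of Lamc1 did not overlap, and the difference was 0.33 (SE 0.17, adjusted p = 0.367). Lamb1, its usual beta partner, stood at 11.25, 10.49 and 10.84 (CD133 high) against 10.94, 10.86 and 10.99 (CD133 low), a difference of −0.071 (SE 0.21, adjusted p = 0.878). The brightest probe set of Lamb1 is of shared sequence (_s_at), and the other 3 differed by 0.08 to 0.50.

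Lama3 and Lamb3 belong to the laminin of epithelial anchorage. Lamb3 had 9.66, 8.38 and 8.47 on the CD133 high arrays and 8.34, 8.42 and 8.61 on the CD133 low arrays. Its difference of 0.38 (SE 0.35, adjusted p = 0.587) came from CD133 high replicate 1 alone and was −0.033 without it. Lama3 averaged 5.89 ± 0.32 (CD133 high) and 6.06 ± 0.099 (CD133 low).

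Among the other alpha chains, Lama2 of muscle and nerve sheaths had 7.99, 8.22 and 9.07 (CD133 high) against 7.94, 8.19 and 8.49 (CD133 low), with the highest value on CD133 high replicate 3. Lama4, the chain of vessel walls, had 9.13, 8.92 and 9.54 (CD133 high) against 8.79, 8.90 and 9.24 (CD133 low), and likewise CD133 high replicate 3 was the highest. Both differed by 0.22 between the fractions (adjusted p = 0.729 and 0.610). Lama5, widespread in adult epithelia, and Lama1, of early basement membranes, differed by −0.033 and 0.0068, and Lamc3 by 0.019. Lamb2, a beta chain of synapses and the kidney filter, averaged 7.03 ± 0.46 (CD133 high) and 7.50 ± 0.22 (CD133 low), and it fell by 0.73 without CD133 high replicate 1 (adjusted p = 0.0483).

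Nid1, the nidogen that joins laminin to collagen IV, had log2 values of 11.997, 12.47 and 12.82 on the CD133 high arrays, against 11.72, 11.56 and 11.89 on the CD133 low arrays. The fractions did not overlap, and CD133 high replicate 1 was the closest to the CD133 low arrays. The difference was 0.71 (SE 0.24, adjusted p = 0.297), the other 2 probe sets of Nid1 differed by 0.39 and 0.89, and without CD133 high replicate 1 Nid1 rose by 0.92 (adjusted p = 0.0155). Nid2, with a similar role, differed by 0.18 (SE 0.20, adjusted p = 0.649) and was highest on CD133 high replicate 1.

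**Figure D3:**
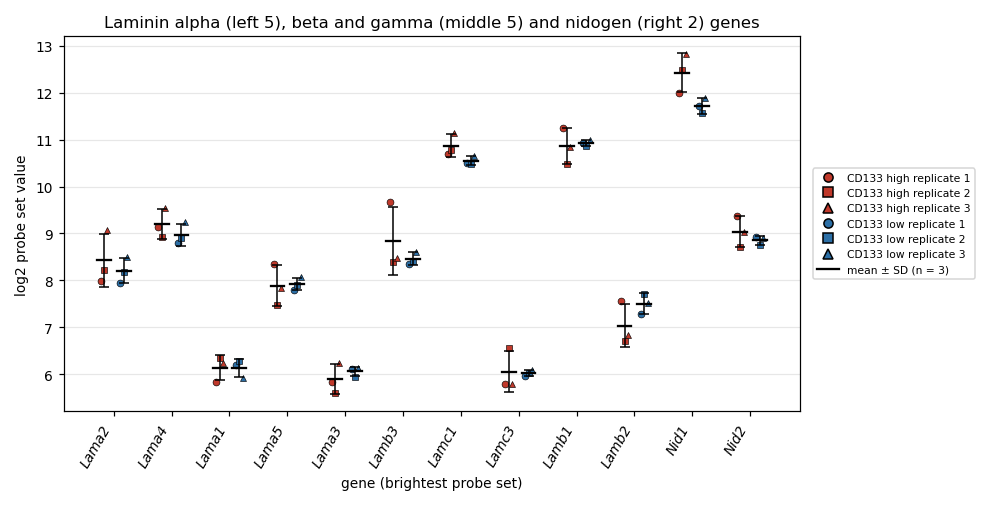
Log2 probe set values of the laminin and nidogen genes, with CD133 high arrays left of CD133 low arrays for each gene and the mean ± SD over 3 arrays in black. Nid1 and Lamc1 are the genes whose fractions do not overlap, and the high mean of Lamb3 in the CD133 high fraction comes from replicate 1.

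The 19 Tspan genes were Tspan1 to Tspan6, Tspan8 to Tspan15, Tspan17, Tspan18, Tspan31, Tspan32 and Tspan33. Of them 14 had a positive difference and 5 a negative one, with a median of 0.16. With the hybridisation controls as a covariate 7 had a positive difference, with a median of −0.05. Without CD133 high replicate 2 there were 10 positive and 9 negative differences with a median of 0.041, and without CD133 high replicate 3 the median was 0.10. None passed the test, and 3 had an unadjusted p under 0.05 (2 higher, 1 lower), against 18.2% of all genes in either direction.

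Tspan12, a partner of Frizzled-4 in the Norrin pathway that shapes retinal vessels, had the largest difference of the 55 genes and the smallest p. Its log2 values were 10.03, 10.33 and 10.30 on the CD133 high arrays, against 9.28, 8.74 and 9.04 on the CD133 low arrays. The fractions were separated by 0.74 at the nearest pair of arrays, and CD133 high replicate 1 lay with the other CD133 high arrays. The difference was 1.20 (SE 0.19), and its adjusted p of 0.0972 missed the threshold, with a range of 0.00830 to 0.448 over the alternatives. Tspan12 rose by 1.29 without CD133 high replicate 1 (adjusted p = 0.00830). Tspan12 was read by a single probe set, 1454604_s_at, of shared sequence.

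Tspan8, a surface protein carried by many gut tumours, had 11.41, 11.34 and 11.24 on the CD133 high arrays and 10.69, 10.79 and 10.95 on the CD133 low arrays. The fractions were apart, and each had little spread. The difference was 0.53 (SE 0.14, adjusted p = 0.286), each of its 5 probe sets was higher in the CD133 high fraction, by 0.28 to 1.71, and Tspan8 rose by 0.49 without CD133 high replicate 1 (adjusted p = 0.0385).

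Tspan13 was the tetraspanin with the most negative difference. It had 11.73, 11.09 and 11.004 on the CD133 high arrays, against 11.87, 12.05 and 11.95 on the CD133 low arrays, and the fractions did not overlap. The difference was −0.68 (SE 0.22, adjusted p = 0.297), and the second probe set differed by −0.62. Tspan13 fell by 0.91 without CD133 high replicate 1 (adjusted p = 0.00590).

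Tspan5, Tspan10, Tspan14, Tspan15, Tspan17 and Tspan33 form the TspanC8 group, which carries ADAM10, the protease that makes the first ligand-dependent cut of Notch receptors, to the cell surface. This grouping was chosen after its values were seen. Of the 6 genes 5 had a positive difference, with a median of 0.33, and none passed the test. Counting only differences larger than their standard error in either setting, 3 of them changed direction with the hybridisation controls as a covariate. They went to −0.23 for Tspan5, −0.070 for Tspan17 and 0.20 for Tspan14. Tspan33, at 0.17 over all arrays, was −0.21 at the lowest of the alternatives, a change of sign that this rule leaves out. Tspan17 had 7.04, 8.38 and 7.92 on the CD133 high arrays, against 7.23, 7.01 and 7.14 on the CD133 low arrays, and Tspan5 had 8.60, 9.70 and 9.58 (CD133 high) against 8.77, 8.94 and 8.69 (CD133 low). In both, CD133 high replicates 2 and 3 lay above every CD133 low array and replicate 1 did not. Tspan14 went the other way, with 11.15, 10.06 and 9.97 (CD133 high) against 10.98, 10.82 and 10.999 (CD133 low), and again only CD133 high replicates 2 and 3 lay outside the CD133 low range on the lower side. Without CD133 high replicate 1, Tspan17 rose by 1.02, Tspan5 rose by 0.84 and Tspan14 fell by 0.92 (adjusted p = 0.0195, 0.0102 and 0.00598). The dimmer Tspan5 probe set, 1431530_a_at, had negative differences, −0.49 over all arrays and −0.74 without that array. Tspan33 had 3 positive probe sets and 1 negative, 1455618_x_at, at −1.13. Adam10 itself differed by 0.15 (SE 0.16, adjusted p = 0.646), also with no call without CD133 high replicate 1 (adjusted p = 0.538).

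Tspan2, expressed in the nervous system, differed by 0.57 (SE 0.28, adjusted p = 0.353) and was positive at each of its 3 probe sets. Tspan3 averaged 11.49 ± 0.10 (CD133 high) and 11.40 ± 0.057 (CD133 low), and Tspan31, whose gene has been found amplified in human sarcomas, averaged 11.37 ± 0.28 (CD133 high) and 11.48 ± 0.18 (CD133 low). The dim Tspan10 averaged 5.05 ± 0.40 (CD133 high) and 4.45 ± 0.82 (CD133 low). The other Tspan genes, Tspan1, Tspan4, Tspan6, Tspan9, Tspan11, Tspan15, Tspan18, Tspan32 and Tspan33, had differences between −0.15 and 0.31 at their brightest probe sets. Tspan32, a gene of blood cells chosen after its values were seen, had a difference of 0.21 there and of −1.30 at its other probe set, 1418398_a_at.

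**Figure D4:**
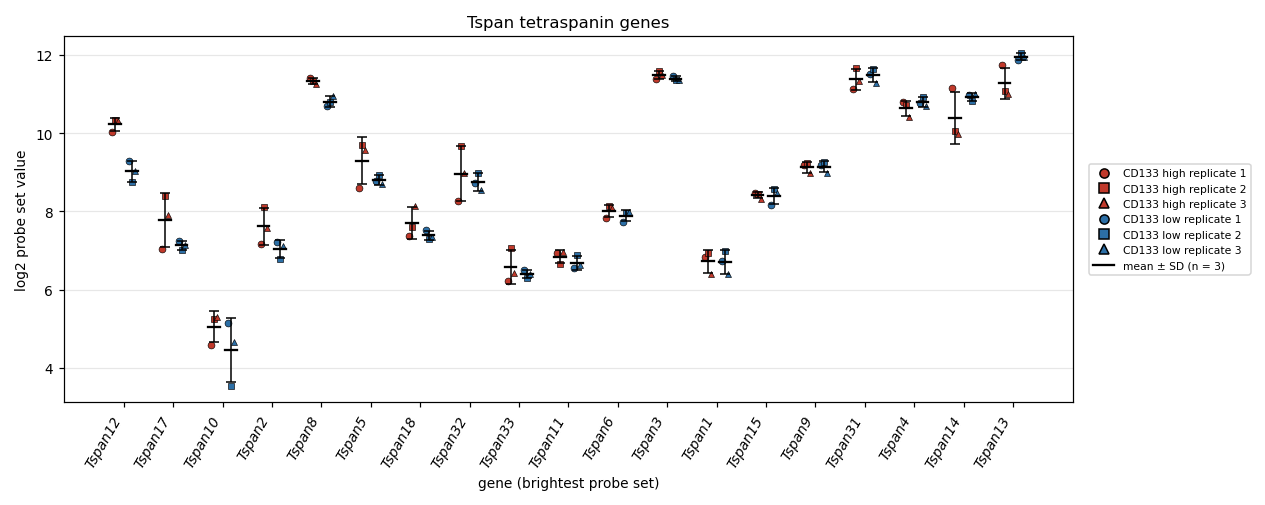
Log2 probe set values of the 19 Tspan genes in order of their difference, with CD133 high arrays left of CD133 low arrays for each gene and the mean ± SD over 3 arrays in black. Tspan12 and Tspan8 (higher) and Tspan13 (lower) have CD133 high arrays that do not overlap the CD133 low arrays, and Tspan17, Tspan5 and Tspan14 have CD133 high replicate 1 (circle) near the CD133 low arrays.

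Different probe sets of a gene did not always tell the same story. Of the 34 genes with several probe sets, 14 had differences of one sign at all of them and 20 had both signs. Genes with one sign included Itga3, Itga6, Nid1 and Tspan8, all positive, and Itga4, Itga5, Itgae, Itgal and Tspan13, all negative. Genes with both signs included Itgb1, Itgav, Itgb5, Lamb1 and Tspan5. Probe sets read different parts of the transcript, and 8 of the 119 had a value listed at 0 on an array, none of them the brightest of its gene.

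**Figure D5:**
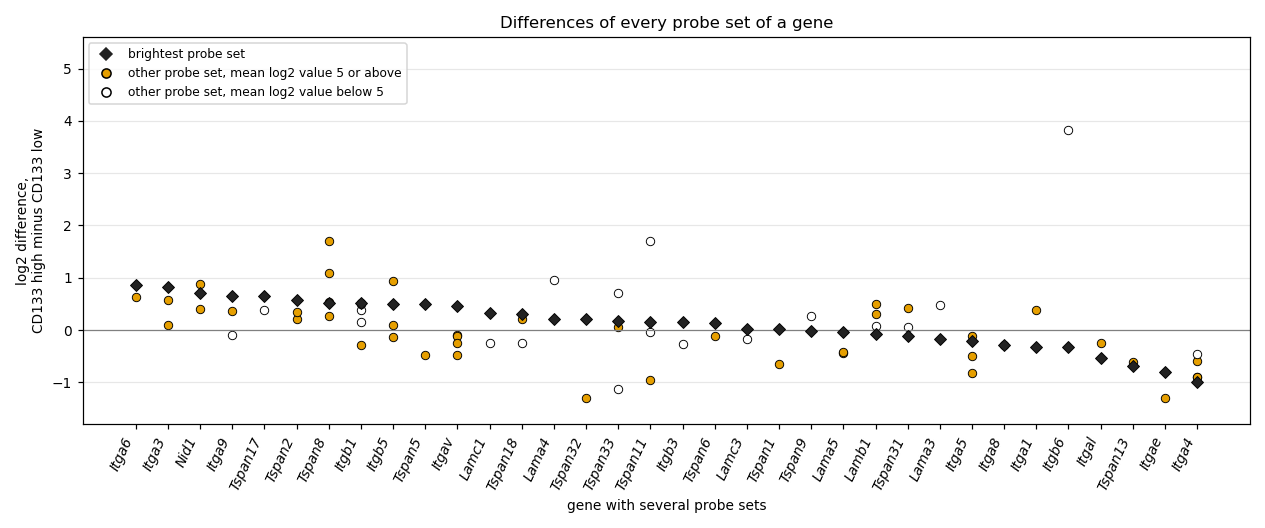
Log2 difference, CD133 high minus CD133 low, of every probe set of the 34 genes with several, ordered by the brightest probe set (diamonds); circles are the other probe sets, open where their mean log2 value over 6 arrays is below 5. The point at 3.84 is the dim Itgb6 probe set listed at 0 on CD133 low arrays and is not to be read as a fold.

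Genes that work with these receptors and the matrix were read from fixed lists. Of 14 integrin activation and focal adhesion genes, 7 were higher and 7 lower, and none passed the test. At an unadjusted p under 0.05, 2 of the 14 were lower, against 9.94% of all genes. Itgb1bp1, which binds the tail of the beta chain of Itgb1, had 9.63, 8.80 and 8.66 on the CD133 high arrays, against 9.96, 10.12 and 9.65 on the CD133 low arrays, and the fractions did not overlap. Its difference was −0.88 (SE 0.28, adjusted p = 0.297). Tln1, the talin that switches integrins on, had 12.01, 11.12 and 11.12 (CD133 high) against 12.17, 12.19 and 12.10 (CD133 low), a difference of −0.74 (SE 0.26, adjusted p = 0.298). The fractions were apart, with CD133 high replicate 1 close to the CD133 low arrays.

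Tetraspanins with other names and their partners gave 7 of 11 higher and 4 lower, with none past limma's test and 0 below 0.05 before adjustment. Cd82, a tetraspanin known as a metastasis suppressor, differed by −0.48 (SE 0.28, adjusted p = 0.406), or by 0.14 once the hybridisation controls entered the model, and Upk1a, of bladder lining, by 0.51 (SE 0.25, adjusted p = 0.353). Other basement membrane genes and laminin receptors gave 10 of 16 higher and 6 lower, with none past the test. Where 8.3% of all genes were higher at an unadjusted p under 0.05, 1 gene of the 16 was. That gene was Bcam, the Lutheran receptor for the laminin chain of Lama5, which had 8.005, 9.24 and 9.32 on the CD133 high arrays and 7.58, 7.50 and 7.71 on the CD133 low arrays. The fractions did not overlap, and the difference was 1.26 (SE 0.36, adjusted p = 0.294). Col4a5, a collagen IV chain, had 7.23, 9.10 and 9.82 (CD133 high) against 7.16, 7.32 and 7.48 (CD133 low), with replicate 1 within the range of the CD133 low arrays and a difference of 1.40 (SE 0.61, adjusted p = 0.327). Without CD133 high replicate 1, Bcam and Col4a5 rose by 1.68 and 2.14 and Tln1, Itgb1bp1 and Cd82 fell by 1.04, 1.18 and 0.80 (adjusted p = 0.00257, 0.00562, 0.00353, 0.00917 and 0.00856).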

How the data were processed

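RNA of 3 CD133 high and 3 CD133 low fractions of 344SQ tumours was hybridised to Affymetrix arrays. The table the authors deposited holds 1 log2 value per probe set and array (scale judged from its range), and their method of summarisation and normalization was not given in the sources used here. Groups came from the sorted fraction in the labels, which number no replicates, so numbers follow accession order and pair no samples. No label says whether replicate arrays stem from separate mice or sorts, so p-values reflect the spread among these arrays, which may be technical. The number of arrays limits the precision.

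The 64 control probe sets were left out, leaving 45037. The series' design text names a smaller array of the same family than a table of this size would need, and this was not resolved here. Symbols came from the annotation of the platform on which the table is registered, in which 34945 probe sets have 1 gene, 932 several and 9160 are unnamed here, and all 55 members matched a RefSeq gene with no change of symbol. Each gene was read at the single-gene probe set with the highest mean over the 6 arrays. The test was limma 3.58.1 (R 4.3.3), which fits a linear model to each probe set and moderates its variance along a trend, with two-sided p-values and Benjamini-Hochberg adjustment over all 45037 probe sets at a threshold of 0.05, without a filter on dim probe sets. Differences are CD133 high minus CD133 low, with model standard errors, and errors of means are SDs. An exact permutation test was not used, since 3 against 3 arrays cannot pass that threshold. The steps were tested on simulated data.

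Every integrin, laminin and nidogen gene is named, with the Tspan genes of smallest p or highest value and up to 2 genes of smallest p per partner list. The members and lists were chosen with earlier results of these data known. The alternatives were quantile normalization, equal 75th percentiles, leaving out the dimmest 50% of probe sets, a floor of 5 on the log2 scale, no or a robust variance trend, array weights, the hybridisation controls as a covariate, averaging probe sets per gene, leaving out shared-sequence probe sets, and leaving out each array.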

Additional observations from a re-analysis of the deposited data

How the results depend on the processing

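The count of members past the threshold was 0 and stayed 0 under 8 of the 10 alternatives that kept all arrays. With array weights it was 8 of 55 (4 higher, 4 lower, beside 4808 of all probe sets), and with a gene's probe sets averaged it was 1, Tspan12 (adjusted p = 0.0498 over fewer features tested). Leaving out single arrays gave 0 to 17 members, with 17 without CD133 high replicate 1 and 0 without any other array. Over all probe sets the count was 82, and it was 157 with equal 75th percentiles, 175 without the dimmest 50%, 36 with the floor of 5, 7 with no variance trend and 185 with a robust trend. Leaving out single arrays gave 0 to 9603, with 9603 without CD133 high replicate 1 and at most 1 without any other. No paired analysis was possible because the labels number no replicates.

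Some differences that were not called with all arrays changed sign. With the hybridisation controls as a covariate, Itgb2 was 0.26, Itgam 0.82, Itgax 0.30, Itga2b 0.024, Itgb5 −0.36, Lamb1 0.37, Lama5 0.45, Lama1 −0.34, Tspan14 0.20, Tspan5 −0.23, Tspan32 −0.64, Tspan17 −0.070 and Cd82 0.14. With probe sets averaged per gene, Itgav was −0.10, Lamb1 0.21, Itga1 0.031, Itgb6 1.75, Tspan32 −0.55 and Tspan1 −0.32, and Lamb1 was 0.31 without shared-sequence probe sets. Leaving out single arrays, Lamb3 ranged from −0.033 to 0.61 and Lamc3 from −0.23 to 0.15. The cause of these changes was not tested. Sign changes of differences smaller than their standard error in both settings are not counted. Tspan12 has no value without shared-sequence probe sets.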
